A study of Oryza sativa with 36 samples.

Results

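Leaf transcriptomes of 2 kinds of regenerated rice plants, named Ag and Callus in the labels, were compared across all genes that passed a filter on low counts. The comparison used 4 of the 18 RNA-seq libraries of the series, 2 of Ag and 2 of Callus, and 26374 of 55986 listed genes. All plants were rice (Oryza sativa, japonica ecotype, TNG67), and leaves were taken at tillering from plants kept in a greenhouse under natural light. Callus names plants regenerated from calli with no further treatment in the label. Ag is read as plants from calli given a transformation treatment, which the label abbreviates without spelling it out. The other 7 groups, Seedling, PB, Callus+AM, AMT+Ab, AMT+Hb, AgBi and AgTi, also had 2 libraries each. Of them, Seedling is read as the plants grown from seed and the others as plants from treated calli. The series' design text calls the 2 libraries of a group biological replicates but does not say whether they came from separate plants, regenerated lines or pools. Where they share a source, p-values measure only the spread between these libraries. The extraction protocol speaks of transgenic rice for all groups, and whether Ag plants carried a transgene is not stated.

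A callus is a mass of dividing, little differentiated cells that grows when plant tissue is cultured with hormones, and whole rice plants can be raised from it. Plants raised in this way can differ from seed-grown plants in gene activity, DNA methylation and sequence, a phenomenon called somaclonal variation. Rice transformation uses such calli as the target tissue, and plants that went through culture alone can serve as a reference for plants that also received a treatment. The comparison of Ag with Callus addresses how leaf expression differs between these 2 kinds of plants.

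The 2 Callus libraries held 41582054 and 48498469 counts and the 2 Ag libraries 28754494 and 30740453. Seedling and Callus were sequenced more deeply than the other 7 groups, so for Ag against Callus depth and treatment cannot be told apart, and neither group has a library at the depth of the other. With every library thinned at random to the smallest total of 26609812 counts, an alternative chosen after seeing the data, 3248 genes were called against 3519 at full depth. At that common depth about 30054 and 30022 genes were expected to have a count in Ag, and 30214 and 29587 in Callus. The identifiers are not paired with gene names in the files, and the RefSeq table of assembly ASM3414082v1 matched 1 of 55801 of them, none of those named here. Gene functions, pathway lists and leaf markers are therefore not used here, and the labelled tissue was not checked against markers. Chromosomes were read from the identifiers.

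The 2 Ag libraries were not each other's closest. Across all tested genes, Ag replicate 1 ranked closest to AMT+Hb replicate 2 (Spearman's rho 0.967) and Ag replicate 2 to AgTi replicate 1 (0.985), while the Ag libraries had a rho of 0.952 with each other. The Callus libraries were each other's closest, at 0.975. These are descriptions over shared genes. Some results are therefore also given by Ag library or without one, and the others rest on both. Of 20799 genes with at least 1 CPM in an Ag library, 3290 were over 2-fold apart (15.8%), 2644 of them higher in replicate 1. In Callus 1151 of 20050 genes were (5.74%). By the same measure the share was 24.6% in Callus+AM and 18.5% in AgBi, both above Ag. In the remaining groups it lay between 4.19% (AgTi) and 8.99% (PB). Ag replicate 1 and the Callus libraries were over 2-fold apart at 7346 and 7317 genes, and Ag replicate 2 and the Callus libraries at 4813 and 4302.

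Leaves of Ag plants differed from those of Callus plants at 3519 genes, 13.3% of those tested. Of these, 1716 were higher in Ag (6.51%) and 1803 were lower (6.84%), at an adjusted p below 0.05 in edgeR's quasi-likelihood test. The genes that rose had a median log2 fold change of 2.01 and those that fell of -1.5, against 0.0451 over all genes tested. Without Ag replicate 1 the number called was 181, and without Ag replicate 2 it was 3468. In leaf RNA, fewer cells of a type and less RNA per cell cannot be told apart. Large rises outnumbered large falls. Of the genes that rose, 293 did so more than 10-fold and 23 more than 100-fold. Of those that fell, 128 did so more than 10-fold and 5 more than 100-fold. The 2 Ag libraries disagreed more at the rises, lying within 2-fold of each other at 1291 of the 1716 rises and 1742 of the 1803 falls, and over 10-fold apart at 40 rises and 0 falls. Both Ag libraries lay above both Callus libraries at 1697 of the 1716 genes that rose and below both at 1800 of the 1803 that fell. Over all genes tested, called or not, the libraries were separated in this way at 7918 genes upwards (30.0%) and 7838 downwards (29.7%).

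**Figure D1:**
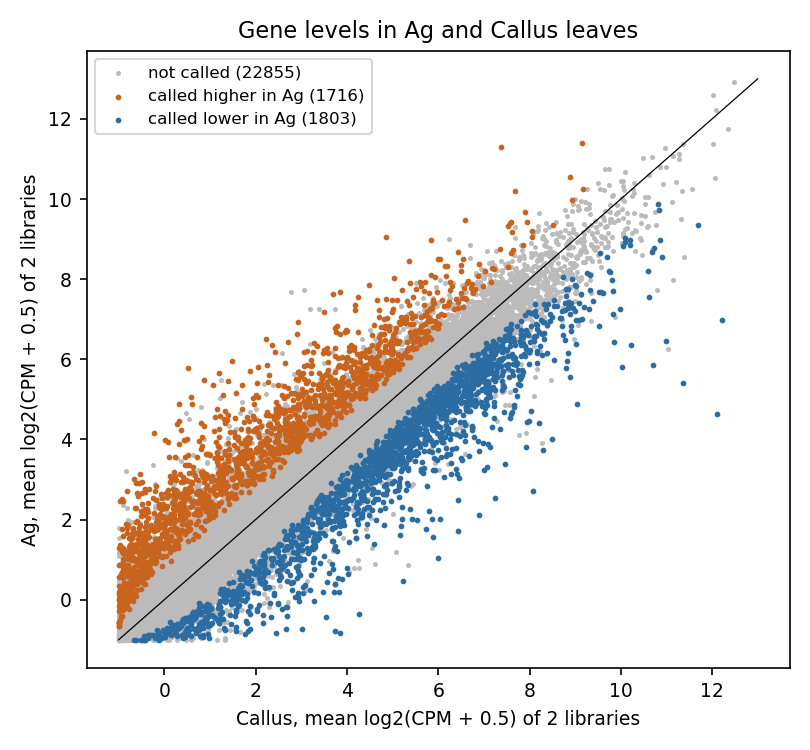
Each point is 1 of the 26374 tested genes, with its mean log2(CPM + 0.5) over the 2 Callus libraries on the x axis and over the 2 Ag libraries on the y axis. Orange points were called higher in Ag (1716), blue points lower (1803) and grey points were not called. The orange points reach farther from the diagonal at low levels, and the blue points are denser at high levels.

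The 2 directions fell at different levels of expression. Levels are given as CPM, counts per library size with TMM scaling. The tested genes were split by mean log2 CPM over the 18 libraries into 4 bins of equal number, with limits given back on the CPM scale. In the highest bin, 30.5 CPM and above, 11.5% were called lower in Ag and 5.32% higher. In bin 2, between 1.07 and 7.81 CPM, the order was the other way, with 5.31% lower and 9.1% higher. All tested genes, called or not, shifted with level in the same way. Their median log2 fold change was 0.326 in the lowest bin, 0.229 in bin 2, 0.00361 in bin 3 and -0.15 in the highest. The called genes in the lowest bin had a median absolute log2 fold change of 3.1, and those in the highest of 1.31. A call needs a larger change where counts are few, so these medians do not compare the size of change between bins.

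The 2 largest falls at genes above the level minimum (a mean log2 CPM of 1 over the 18 libraries) were shared by both Ag libraries. LOC_Os09g17740 on chromosome 9 stood at 4626 and 4141 CPM in Callus replicates 1 and 2 and at 31.1 and 19.1 CPM in Ag replicates 1 and 2. By length-normalised level it held 3359 and 3010 FPKM in Callus and 23.5 and 14.4 FPKM in Ag, which places it among the abundant leaf transcripts of the Callus plants. Its groups lay far apart, at 25.1 ± 8.51 CPM in Ag against 4384 ± 343 CPM in Callus (SD, n = 2 each). In edgeR the log2 fold change, with its SE, was -7.45 ± 1.46 (adjusted p = 0.0103).

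LOC_Os06g51260 on chromosome 6 was at 15.1 and 23.0 CPM in Callus and at 0.341 and 0.214 CPM in Ag, the last from 10 and 8 counts. Both Ag libraries were low, with a mean of 0.277 ± 0.0892 CPM, while Callus had 19.1 ± 5.59 CPM (SD over 2 libraries). EdgeR gave -6.11 ± 0.923 (SE) as the log2 fold change and 0.00442 as the adjusted p. The ratio of pooled counts was 71.7-fold, with a 95% interval from 45.4 to 121 (exact Poisson, on the Ag counts) that covers counting error only. Without Ag replicate 1 the calls of LOC_Os09g17740 (edgeR adjusted p = 0.105) and LOC_Os06g51260 (edgeR adjusted p = 0.0573) ended, although the remaining log2 fold changes were -7.84 and -6.45.

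The 2 largest rises rested mostly on 1 library. LOC_Os02g33550 on chromosome 2 held 34.8 CPM in Ag replicate 1 and 0.348 CPM in Ag replicate 2. In Callus it held 0.0483 and 0.0211 CPM, from 2 counts and 1 count. Both Ag libraries were above Callus, and replicate 1 was far above replicate 2. EdgeR estimated a log2 fold change of 8.87 ± 2.58 (SE, adjusted p = 0.0448), and without Ag replicate 1 edgeR gave 3.23 with an adjusted p of 0.577. The call ended under 11 of 16 alternatives, with adjusted p between 7.58e-05 and 0.577 over edgeR, DESeq2 and limma.

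LOC_Os03g02190 on chromosome 3 showed the same split, with 23.3 CPM in Ag replicate 1 and 0.858 CPM in Ag replicate 2. Callus held 2 counts in replicate 1 and 0 in replicate 2. The edgeR log2 fold change of 8.83 ± 1.82 (SE, adjusted p = 0.0125) was 5.03 without Ag replicate 1 (edgeR adjusted p = 0.1215). Pooled counts gave a ratio of 477-fold, with an exact Poisson interval from 132 to 3940 for the 2 Callus counts that covers counting error only and not the spread between the Ag libraries. Its call ended under 6 of 16 alternatives, with adjusted p between 1.1e-07 and 0.18 over edgeR, DESeq2 and limma. The calls of LOC_Os02g33550 and LOC_Os03g02190 also ended without Callus replicate 1 or 2 (edgeR adjusted p 0.0814 to 0.2175). Reads of near-identical copies, overlapping genes or antisense genes cannot be assigned with certainty from these tables, so any value of a named gene may include such reads.

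In the other 7 groups these genes did not follow the letters Ag in the labels. LOC_Os09g17740 was low in AgTi, at 16.6 ± 5.13 CPM (SD, n = 2), and intermediate in AMT+Hb, at 162 and 216 CPM. It was high in AgBi, at 3788 and 3546 CPM, in AMT+Ab, at 3698 and 3519 CPM, in PB, at 1790 and 1357 CPM, and in Seedling, at 6564 and 5781 CPM. The Callus+AM libraries disagreed, with 13.3 CPM in replicate 1 and 1379 CPM in replicate 2.

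LOC_Os06g51260 was also low in AgTi and high in AgBi, AMT+Ab, PB and Seedling, with 0.218 ± 0.0815 CPM in AgTi (SD, n = 2), 0.582 and 1.42 CPM in the AMT+Hb libraries and 0.146 and 2.05 CPM in those of Callus+AM. It stood at 63.7 ± 21.2 CPM in AgBi, 75.9 ± 4.96 in AMT+Ab, 73.1 ± 24.4 in PB and 210 ± 70.5 in Seedling (SD, n = 2 each). The levels in AgBi, AMT+Ab and PB did not differ beyond their spread. Ag and AgTi, the lowest groups, overlapped.

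LOC_Os02g33550 and LOC_Os03g02190 were low in both Callus and Seedling and reached at least 1 CPM in 12 of the 18 libraries each. LOC_Os02g33550 was at 0 counts in both Seedling libraries, and AMT+Ab held 33.4 and 35.6 CPM. LOC_Os03g02190 was at 0.174 and 0.0264 CPM in Seedling and at 48.9 and 17.1 CPM in AMT+Hb. Ag replicate 2 and AgTi replicate 1 were the lowest libraries of both genes outside Callus and Seedling, at 0.348 and 0.427 CPM for LOC_Os02g33550 and 0.858 and 0.801 CPM for LOC_Os03g02190.

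**Figure D2:**
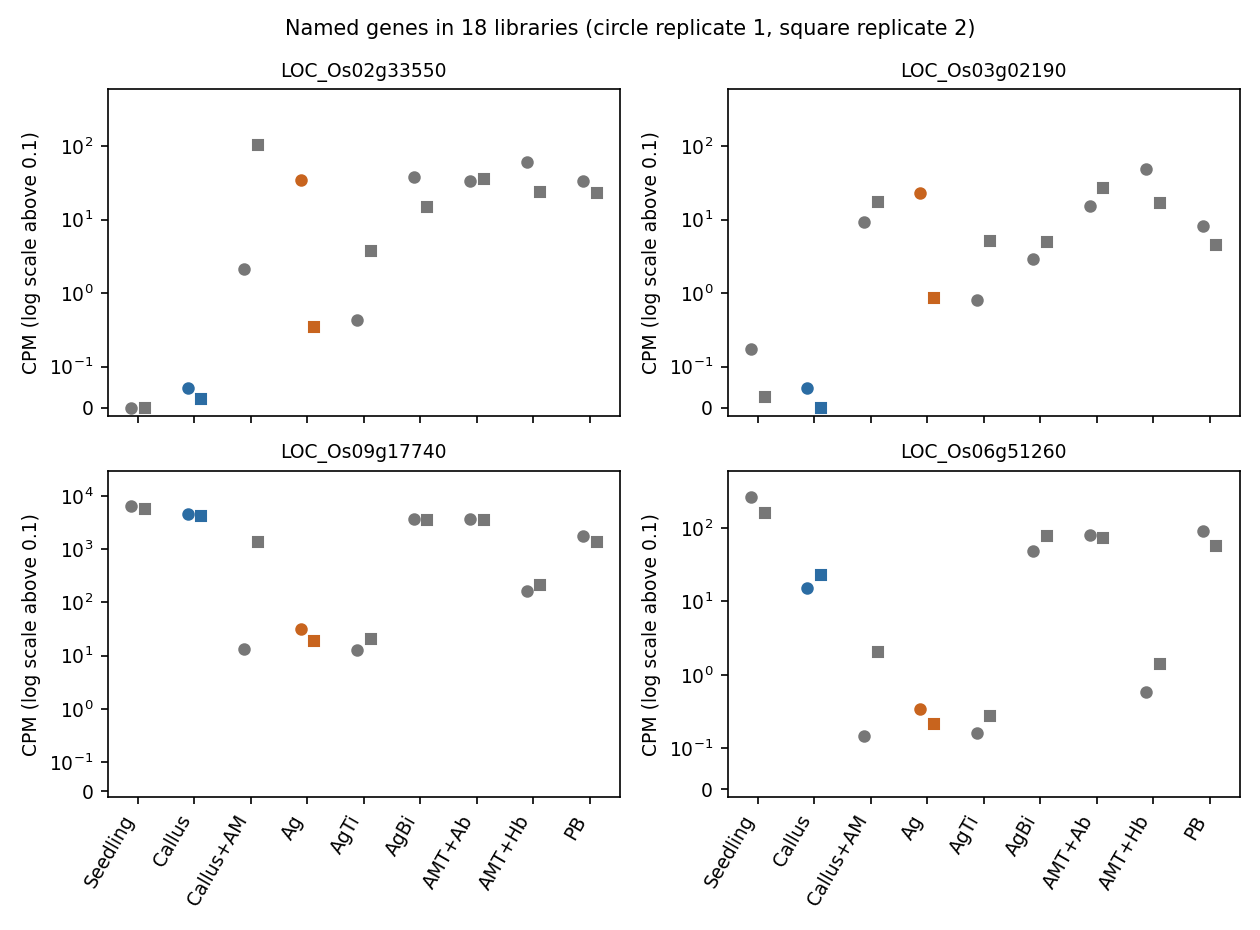
CPM of the 4 named genes in each of the 18 libraries, on an axis that is logarithmic above 0.1 CPM and linear below it, with groups along the x axis, circles for replicate 1 and squares for replicate 2. Ag is orange and Callus blue. LOC_Os09g17740 and LOC_Os06g51260 are low in Ag and AgTi and high in AgBi, and LOC_Os02g33550 and LOC_Os03g02190 are split between the 2 Ag libraries.

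The called genes as a whole were also mostly closer to Ag in AgTi, AMT+Hb and AMT+Ab and mostly closer to Callus in AgBi and Seedling. Since these genes were chosen for a difference between Ag and Callus, the position of another group is a description and carries no test. The mean of AgTi lay nearer Ag than Callus at 1394 of the 1716 genes that rose (81.2%) and at 1687 of the 1803 that fell (93.6%), against 65.1% of all genes tested. For AMT+Hb the shares were 76.9% and 90.0%, against 68.4% of all genes, and for AMT+Ab 72.5% and 72.0%, against 63.0%. Callus+AM was nearer Ag at 57.4% of the genes that rose and 68.4% of those that fell, against 53.4% of all genes, and PB at 40.1% and 44.4%, against 46.0%. AgBi was on the other side, nearer Ag at 28.4% of the genes that rose and 34.6% of those that fell, against 40.9% of all genes. Seedling was also nearer Callus, with 32.3% and 24.6% nearer Ag against 40.0% of all genes. With Ag replicate 1 alone in place of the Ag mean, the AgTi shares were 66.9% and 89.5%, against 49.9% of all genes. With replicate 2 alone they were 89.5% and 96.0%, against 71.3%. For AgBi they were 23.0% and 31.6% with replicate 1, against 37.9% of all genes, and 34.3% and 37.9% with replicate 2, against 38.6%, an alternative chosen after seeing the data.

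The median levels of the called genes also lay near Ag in AgTi and AMT+Hb and near Callus in AgBi and Seedling. By these medians AMT+Hb was slightly nearer Ag than AgTi was, whereas gene by gene AgTi was the more often nearer Ag, as given above. The median over the genes that fell was 37.7 and 38.6 CPM in the Callus libraries and 12 and 14.3 CPM in the Ag libraries. It was 13.5 and 17.2 CPM in AgTi, 13.4 and 16.5 CPM in AMT+Hb, 30.2 and 27.7 CPM in AgBi and 34.5 and 33.7 CPM in Seedling. The genes that rose had a median of 3.31 and 3.16 CPM in Callus and of 15.9 and 10.5 CPM in the Ag libraries. Seedling (4.64 and 4.74 CPM) and AgBi (4.55 and 4.72 CPM) were again close to Callus, while AMT+Hb held 11.4 and 9.39 CPM, AMT+Ab 8.98 and 11.4 CPM and AgTi 10.1 and 8.87 CPM.

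**Figure D3:**
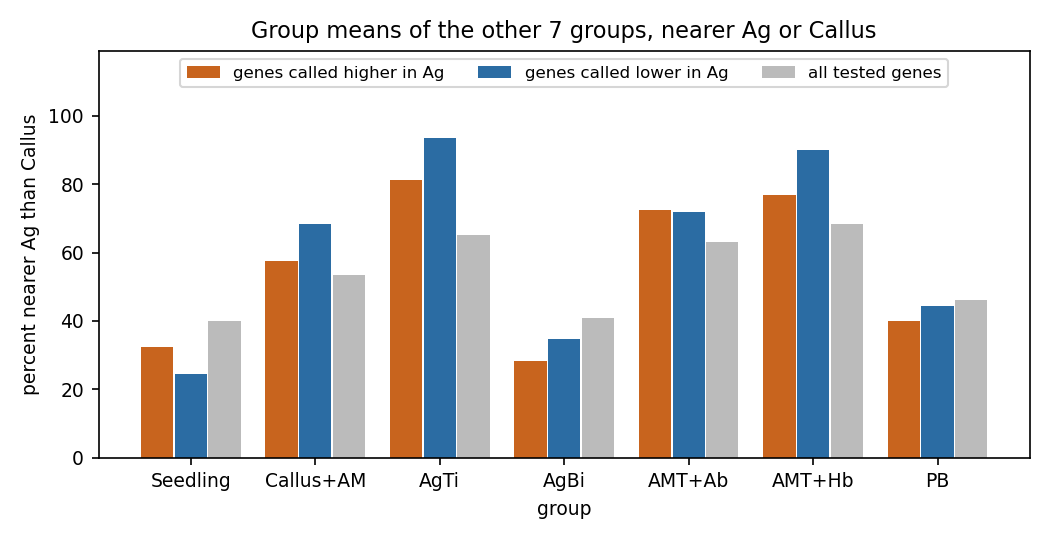
For each of the other 7 groups, the bars give the percent of genes whose group mean on the log2(CPM + 0.5) scale lay nearer the Ag mean than the Callus mean. Orange bars are the genes called higher in Ag, blue bars those called lower and grey bars all tested genes. AgTi and AMT+Hb stand highest for the genes called lower, at 93.6% and 90.0%, and Seedling lowest, at 24.6%.

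Both groups stood at an end of the 9 group means more often at the called genes than elsewhere, as the choice of genes favours. Callus had the lowest mean of all groups at 764 of the genes that rose (44.5%, against 10.5% of all genes tested) and the highest at 754 of those that fell (41.8%, against 11.0%). Ag was highest at 567 of the genes that rose (33.0%, against 7.25% of all genes tested) and lowest at 618 of those that fell (34.3%, against 6.79%). The deeper libraries moved with part of the calls. All 4 Seedling and Callus libraries lay below all 14 others at 244 genes that rose (14.2%, against 2.08% of all genes tested) and above them at 353 that fell (19.6%, against 2.34%). The choice of genes favours these shares too, since nearly all called genes already had the Callus libraries apart from the Ag libraries. At these genes the depth set and the treatment cannot be told apart.

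A contrast that shares no library with Ag against Callus was also tested, the mean of AgTi and AgBi against Callus+AM, all of them in the shallower set. It called 15 of 26374 genes (0.0569%), 11 higher (0.0417%) and 4 lower (0.0152%), with 3704 genes at an unadjusted p below 0.05. Without Callus+AM replicate 1 it called 858 genes, and without any other single library between 2 and 213. Of the 15 genes called with all libraries, 9 were also called in Ag against Callus, which called 13.3% of all genes tested. Only 1 of the 9 went in the same direction. Of the others, 7 were lower in Ag and higher in this contrast, and 1 was higher in Ag and lower in this contrast. The genes that rose in Ag had a median log2 fold change of -0.296 in this contrast, against -0.133 over all genes, and 71.2% of them lay below 0 against 60.7% of all genes. The genes that fell in Ag had a median of -0.0245.

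AgTi and AgBi, which this contrast averages, lay on opposite sides of Callus+AM. At the genes that rose in Ag, the median log2 difference from Callus+AM was 0.264 in AgTi and -0.58 in AgBi, against -0.0364 and -0.0926 over all genes tested. At the genes that fell it was -0.368 in AgTi and 0.409 in AgBi. The difference between AgTi and AgBi at these genes was not tested.

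Ag replicate 1 also stood farther from Callus at the called genes. The genes that rose were a median of 1.78 above the Callus mean in Ag replicate 1 and 1.16 in replicate 2, on the log2(CPM + 0.5) scale. The genes that fell were at -1.48 and -1.21. Replicate 1 was the farther at 76.6% of the genes that rose and 73.7% of those that fell, against 63.5% of all genes tested.

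Some genes reached a clear level in 1 of the 4 libraries. At least 5 CPM in Ag replicate 1 and at most 0.5 CPM in the other 3 libraries were found at 61 genes, 20 of which were called, against 13.3% of all genes tested. The choice of these genes by their level in Ag replicate 1 favours a call. Of the 61 genes, 55 reached 5 CPM in some library of the other 7 groups. Only 2 genes had that pattern in Ag replicate 2, 14 in Callus replicate 1 and 2 in Callus replicate 2. Conversely, 44 genes were at or below 0.5 CPM in Callus replicate 1 and at or above 5 CPM in the other 3. This reverse pattern was found at 0 genes for Ag replicate 1, 1 for Ag replicate 2 and 2 for Callus replicate 2. No gene was at 0 counts in both libraries of one group and at 1 CPM or more in both of the other, in either direction.

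The number of calls depended on which libraries were in the fit. The 181 genes called without Ag replicate 1 were 99 higher and 82 lower, and 180 of them were among the 3519. The 3468 called without Ag replicate 2 were 2013 higher and 1455 lower, and 2397 of them were among the 3519. Without Callus replicate 1 the number was 416 and without Callus replicate 2 it was 964. These fits assume that a group's remaining library varies as the other groups do.

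**Figure D4:**
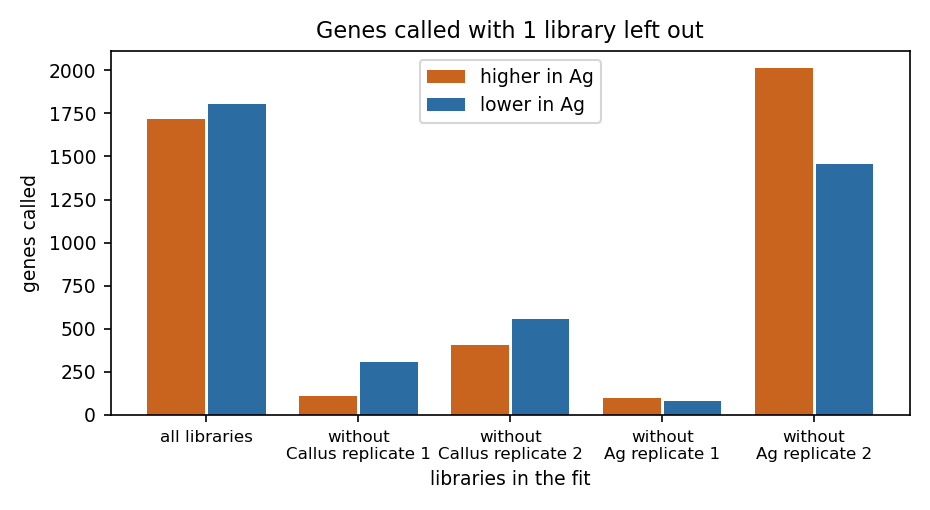
Number of genes called higher (orange) and lower (blue) in Ag with all 18 libraries in the fit and with each Ag or Callus library left out. The bars are lowest without Ag replicate 1, at 99 and 82 genes.

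Called in all 4 of these fits, and in the fit with every library, were 132 genes, 58 higher and 74 lower in Ag. The 58 genes had log2 fold changes between 1.21 and 8.58 (median 2.91) and lay on 11 chromosomes, and the 74 genes had a median of -2.42 and lay on all 12. The median of the 58 genes was 35.2 and 24.1 CPM in Ag and 3.49 and 3.38 CPM in Callus. The median of the 74 genes was 10.4 and 11.0 CPM in Ag and 56.4 and 65.2 CPM in Callus. Both sets are part of the called genes, chosen for a difference between Ag and Callus, so their levels in other groups carry no test. Over all genes tested, the median of each library lay between 7.05 and 9 CPM. Among the other groups the 74 genes were low in AgTi (9.77 and 14.6 CPM) and AMT+Hb (12.1 and 14.3 CPM). The same genes were high in Seedling (57.6 and 59.3 CPM) and AgBi (44.8 and 32.2 CPM). Callus+AM, at 15.8 and 17.6 CPM, was near the low groups. AMT+Ab was intermediate, at 30.0 and 24.5 CPM and so above Callus+AM, and PB held 32.2 and 28.6 CPM. By median CPM the 58 genes were highest in AgTi among the other groups (20.5 and 17.2 CPM), followed by AMT+Ab (15.7 and 16.1 CPM). AMT+Hb (13 and 13.1 CPM) was about level with Callus+AM (15.1 and 10.8 CPM). Gene by gene, the median log2 difference from Callus+AM was -0.0788 in AMT+Ab and 0.0606 in AMT+Hb, so their order depends on the measure. The 58 genes were low in AgBi (7.98 and 5.53 CPM), PB (7.26 and 7.43 CPM) and Seedling (5.34 and 5.19 CPM). None of the 4 genes named above is among the 132, which make up only 3.75% of the 3519 genes called with every library.

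Short and long genes moved differently. A relative gene length, the ratio of a gene's count to its FPKM in the deposited tables, gave a value for 21400 tested genes (81.1%). Split into 4 bins of equal number by length, the shortest bin had 9.31% of genes called higher in Ag and 4.47% lower. In the longest bin, 3.31% were called higher and 11.7% lower. The median log2 difference of Ag replicate 1 from the Callus mean went from 0.361 in the shortest bin to -0.469 in the longest, and that of Ag replicate 2 from 0.082 to -0.107.

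When the length trend of each library was removed by offsets, an alternative chosen after seeing the data, the calls were more even along length. The offsets were fitted to the same relative lengths that define the bins, so they favour this evenness. The shortest bin then held 412 higher and 399 lower genes, and the longest 379 higher and 481 lower. The total was 3548, against 3613 for the same 21400 genes without the offsets, and 3134 genes were called in the same direction in both. These are 86.7% of the calls without offsets and 88.3% of those with them.

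**Figure D5:**
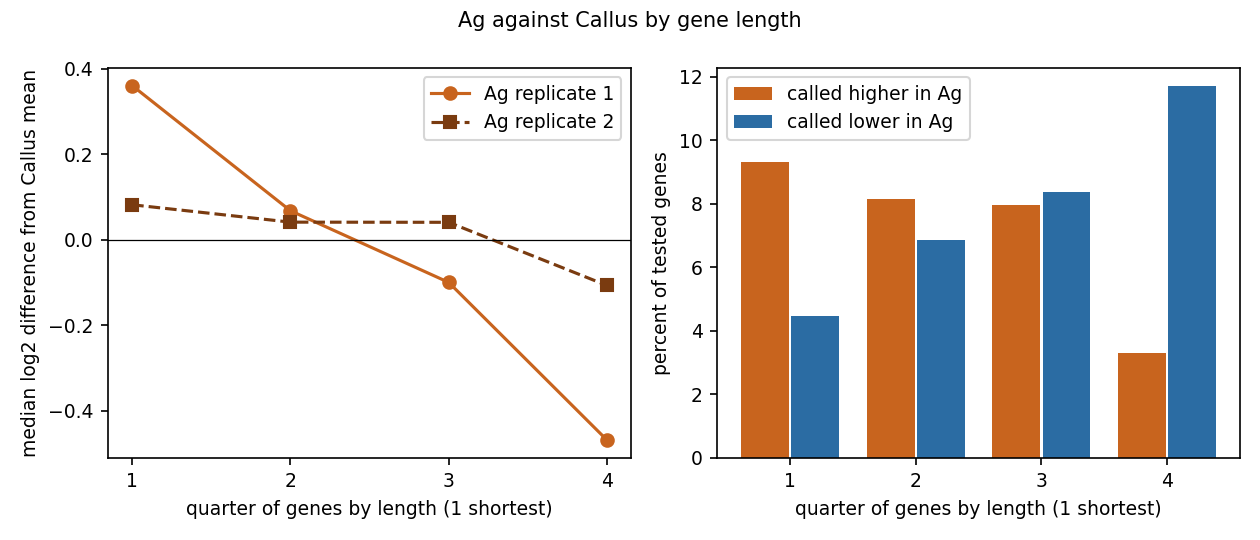
Tested genes in 4 bins of relative length, from shortest (1) to longest (4). On the left, the median log2 difference of each Ag library from the Callus mean falls from 0.361 to -0.469 in replicate 1 and from 0.082 to -0.107 in replicate 2. On the right, bars give the percent of genes called higher (orange) and lower (blue) in Ag.

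The calls were spread over the whole genome. By chromosome, the share of tested genes that rose was between 5.09% on chromosome 11 and 7.68% on chromosome 1, and the share that fell between 5.84% on chromosome 4 and 7.98% on chromosome 8. Runs of at least 4 neighbouring tested genes that all rose numbered 4 and held 16 genes, 0.932% of those that rose. Runs that all fell numbered 5 and held 23 genes, 1.28% of those that fell.

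The longest run covered 6 genes on chromosome 1, between the loci numbered 62770 and 62820, all lower in Ag in both libraries. Their summed level was 57.2 and 74.2 CPM in Ag and 144 and 154 CPM in Callus, and their log2 fold changes ranged from -4.05 to -0.872. The locus numbered 62810 had the largest fall, from 8.12 and 14 CPM in Callus to 0.954 and 0.402 CPM in Ag (-4.05 ± 0.603, SE, in edgeR, adjusted p = 0.00424), and is among the 74 genes called lower in all fits that left out a library. Summed CPM of the run averaged 337 in Seedling, 278 in AgBi and 280 in PB. It averaged 75.8 in AgTi and 66.5 in AMT+Hb. Of the runs of 4 genes that rose, the one on chromosome 10 between the loci numbered 33530 and 33620 had the highest log2 fold changes (2.69 to 3.62). Its summed levels were 35.3 and 9.35 CPM in Ag and 3.29 and 2.23 CPM in Callus. Most of the sum in Ag replicate 1 was the locus numbered 33540, at 27.9 CPM there and 2.68 CPM in Ag replicate 2. The locus numbered 33530 held only 0.0483 and 0.0211 CPM in Callus, below the level of 3 counts.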

How the data were processed

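Per the labels, RNA was taken from leaves and made into libraries with Illumina protocols. The authors deposited estimated counts and FPKM values per gene for 18 libraries. Per the submitters' processing notes, the tools included Cuffdiff, Cuffnorm and TopHat. Their versions and roles, the genome build and the strand setting are not stated there. RNA was extracted with a column kit or Trizol, and the labels do not say which sample had which. Of the count values, 0.707% were not whole, and all were rounded.

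Counts were tested with edgeR 4.0.16 in R 4.3.3: filterByExpr by group (26374 genes kept), scaling by the trimmed mean of M values, and a robust quasi-likelihood fit with a coefficient per group over 18 libraries (9 residual degrees of freedom, common dispersion 0.146). P-values were adjusted by the Benjamini-Hochberg method over all genes tested, with calls below 0.05. SE values are the absolute log2 fold change over the root of F. Alternatives used DESeq2 1.42.0, limma 3.58.1 on log2(FPKM + 1) or log2(FPKM + 0.1), other scalings, filters and sets of libraries. 3 counts in an Ag or Callus library correspond to between 0.0632 and 0.102 CPM. The tests were tried on simulated data.

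Named genes are the 2 higher and 2 lower with the largest log2 fold changes among called genes with a mean log2 CPM of at least 1 and no overlap between Ag and Callus libraries (1230 and 1535 genes). Since identifiers were not paired with names, the gene and marker lists drawn up for leaf were not used. The comparison and rules were chosen with earlier results of these data known. The bisulfite samples were not analysed here.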

Additional observations from a re-analysis of the deposited data

How the results depend on the processing

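Ag against Callus called 3519 genes. Fits that left out 1 Ag or Callus library called 181 to 3468. Against a fold of 1.5 (glmTreat) 1132 genes were called, with only the groups compared in the fit 1368, and with the DESeq2 Wald test 5656. The other alternatives, relative log expression factors, no filter on low counts, limma on FPKM and, chosen after seeing the data, thinned counts and length offsets, stayed within 1.5 times. The replicate numbers share only a number in the labels, and with them as a replicate block 2662 genes were called (the replicate 1 minus replicate 2 differences of Ag and Callus correlated at 0.142 across genes, which are not independent). The mean of AgTi and AgBi against Callus+AM called 15 genes, 2 to 858 when a library was left out (858 without Callus+AM replicate 1). It called 89 with no filter on low counts, 7 against a fold of 1.5, 782 with DESeq2 and 110, 108 and 95 with limma on log2(FPKM + 1), log2(FPKM + 0.1) and log2(FPKM + 1) with no filter. With only its groups in edgeR's fit it called 0, with 1726 genes at an unadjusted p below 0.05. No named gene changed direction. Runs of neighbouring genes numbered 12 higher and 12 lower when 1 uncalled gene was allowed within a run. With 2 libraries a group, the calls rest on spread shared over all 9 groups.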
